A study of Mus musculus with 17 samples.

Results

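Aerocytes are the large capillary endothelial cells that line most of the gas-exchange surface of the mouse alveolus. They were described here through 6 genes known to mark them, taken by symbol from a table of 45777 genes: Car4, Ednrb, Apln, Kdr, Fibin and Tbx2. All 6 were among the 22052 genes that passed the filter on low counts. RNA came from lung of wild-type male C57BL/6 mice, bought at an age of 6 weeks and acclimatised for a week. Their left lung received a single fraction of 65 Gy or 75 Gy from an image-guided focal irradiator, and non-irradiated mice served as controls. Tissue was taken after 2 weeks, the stage the study calls inflammation, or after 6 weeks, the stage it calls fibrosis. The 17 libraries formed 6 groups of 3 libraries, except for 65 Gy at 6 weeks, which had 2. The study sampled the lesion in irradiated lungs, so irradiated and control RNA also differ in how the tissue was chosen.

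Alveolar capillaries hold a mosaic of aerocytes and of smaller general capillary cells, which act as the progenitors of both. Aerocytes depend on VEGF from the alveolar epithelium, which they receive through the receptor that Kdr encodes. They make apelin, the product of Apln, while the apelin receptor Aplnr is a gene of general capillary cells. Endothelin receptor B, encoded by Ednrb, removes endothelin from the circulation and releases nitric oxide when bound. Car4 encodes a carbonic anhydrase anchored on the luminal side of the capillary, where it speeds the exchange between carbon dioxide and bicarbonate. Tbx2 encodes a T-box transcription factor and Fibin a secreted protein first described in the fin bud of fish. Of the 6, Kdr is used by nearly all blood endothelium, Tbx2 also by lung mesenchyme and Car4 also by alveolar macrophages. In bulk tissue, fewer cells of a type and less RNA per cell cannot be told apart.

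By RefSeq gene spans on the GRCm38.p6 assembly, Car4 lies on chromosome 11 from 84957754 to 84966054 and Tbx2 on the same chromosome from 85832615 to 85841948, 867 kb further on. Ednrb spans 103814615 to 103844508 of chromosome 14, Kdr 75932827 to 75979072 of chromosome 5, Fibin 110360925 to 110362993 of chromosome 2 and Apln 48025146 to 48034853 of chromosome X. No other gene of the GENCODE annotation overlapped any of them on either strand. RefSeq promoters were found for 5 of the 6, all but Tbx2. The 250 bases before a RefSeq start are shown for Ednrb, one of the receptors that fell after irradiation, and for Apln, whose course was the opposite at 2 weeks. For Ednrb this is the start of 1 of its transcripts, so the stretch lies inside the gene span, where GENCODE places no exon. Of the stretch before the start of Fibin, 190 of 250 bases lie in a GENCODE exon, so it is not printed. Capitals mark GGAAG, the core that ETS factors bind, and CACCC, the core that KLF factors bind, on either strand, so a match may be printed as its reverse complement.
Ednrb, chr14:103843702-103843951, minus strand: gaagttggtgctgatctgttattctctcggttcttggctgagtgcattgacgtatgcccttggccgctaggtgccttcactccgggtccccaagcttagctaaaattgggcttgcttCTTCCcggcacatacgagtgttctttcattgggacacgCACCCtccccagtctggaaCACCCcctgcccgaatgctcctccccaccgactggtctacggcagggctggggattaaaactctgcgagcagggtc
Apln, chrX:48034854-48035103, minus strand: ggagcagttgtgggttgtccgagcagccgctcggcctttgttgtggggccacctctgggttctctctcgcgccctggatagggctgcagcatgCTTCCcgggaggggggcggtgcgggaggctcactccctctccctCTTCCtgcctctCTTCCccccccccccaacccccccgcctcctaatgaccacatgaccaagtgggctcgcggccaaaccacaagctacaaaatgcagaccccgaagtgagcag
Over these 250 bases the Apln sequence held 3 matches of the ETS core and none of the KLF core. Before their starts, Ednrb held 1 and 2, Car4 2 and 1, and Kdr 1 of each. Fibin also held 1 of each, in its stretch that is largely exon. Matches are a description of letters: 71.4% of 32851 mouse promoters of 300 bases (250 before and 50 after the start) held the ETS core at least once, and 57.5% held the KLF core. The core ACGTG of hypoxia-inducible factors, present in 19.6% of those promoters, was found in that of Car4 alone among the 5 members' promoters. The core that GATA factors bind, GATAA, is in 25.4% and was found in none of the 5.

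The libraries held 46764569 to 66797879 counts, and levels are given as CPM, counts scaled to library size with TMM factors. The members lay between 9.02 and 607 CPM. One library of 75 Gy at 2 weeks, 3134, stood apart from the other 2 of its group. It had 25.9% of their mean Ednrb level, 27.5% for Fibin, 36.4% for Car4, 55.7% for Kdr, 64.6% for Tbx2 and 81.6% for Apln. The summed CPM of 17 pan-endothelial genes was 57.3% of the mean of those 2 libraries, and that of 6 leukocyte genes was 214%. Because all groups share 1 estimate of spread per gene, it also widened the errors of Ednrb, Fibin and Car4 in every comparison. Leaving it out of the shared fit for comparisons it is not part of was decided after the results were seen, here and below. Without it in the shared fit, the edgeR adjusted p after 65 Gy was smaller for each of the 6 members at both times. For Kdr at 2 weeks it was 0.00935 in place of 0.142.

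In the 4 comparisons of an irradiated group with controls of the same time, Ednrb, Fibin and Kdr had the largest decreases. Apln rose at 2 weeks and was below controls at 6 weeks. A gene was called when edgeR's quasi-likelihood test gave an adjusted p of at most 0.05 (Benjamini-Hochberg, over 22052 genes) and the log2 fold change was at least 1 in size. By both limits 2 of 6 members were called lower after 65 Gy at 2 weeks, where 0.88% of all genes were. The counts were 2 of 6 for 75 Gy at 2 weeks (2.07% of all genes), 1 of 6 for 65 Gy at 6 weeks (0.943%) and 3 of 6 for 75 Gy at 6 weeks (3.13%). No member was called higher in any of the 4, where 3.47%, 5.67%, 4.34% and 7.28% of all genes were. By the adjusted p alone, 2, 4, 2 and 6 members fell, beside 4.29%, 10.5%, 7.01% and 18% of all genes in the same order. Apln alone rose, in both comparisons at 2 weeks, beside 6.7% and 11.8% of all genes, and no member rose at 6 weeks, beside 7.66% and 18%. In the mean of the 4 irradiated groups against controls Ednrb and Fibin were called lower (1.64% of all genes) and none higher (6.85%), and 4 members fell by the adjusted p alone (21%). The median log2 fold change of the 6 was -0.37, -0.63, -0.73 and -1.12, while that of all genes lay between -0.01 and 0.04.

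**Figure D1:**
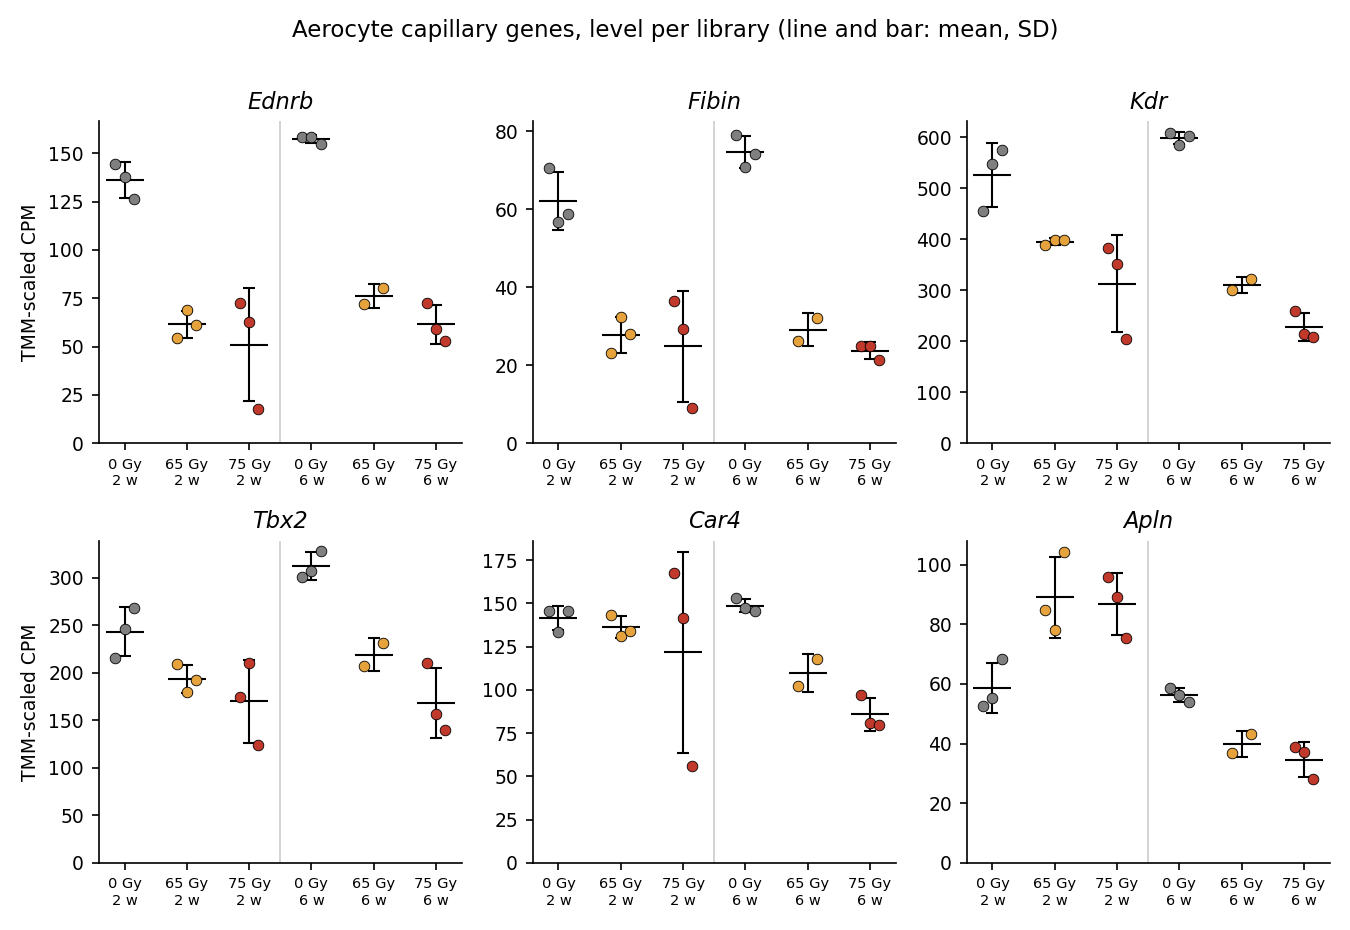
TMM-scaled CPM of the 6 aerocyte capillary genes (vertical axis, from 0) in each of the 17 libraries by dose and time; points are libraries, the horizontal line is the group mean and the bar its SD. Ednrb, Fibin and Kdr lie below every control in all 11 irradiated libraries, and Apln lies above its controls at 2 weeks and below them at 6 weeks.

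Ednrb encodes the endothelin B receptor. Its level in the controls was 145, 138 and 126 CPM at 2 weeks and 158, 159 and 155 CPM at 6 weeks. After 65 Gy it was 54.6, 68.8 and 61.1 CPM at 2 weeks and 71.8 and 80.4 CPM at 6 weeks. After 75 Gy it was 72.6, 62.9 and 17.5 CPM at 2 weeks, the last in library 3134, and 72.8, 59.0 and 52.8 CPM at 6 weeks. Every irradiated library was therefore below every control, the highest at 80.4 CPM against a lowest control of 126 CPM. Of all genes, 4.5% were lower without overlap in the 11 irradiated libraries against the 6 controls. The log2 fold change was -1.15 (SE 0.33, edgeR adjusted p = 0.0359) for 65 Gy at 2 weeks, or 45.2% of the control level. It was -1.42 (adjusted p = 0.00644) for 75 Gy at 2 weeks and -1.36 (adjusted p = 0.00534) for 75 Gy at 6 weeks by edgeR. For 65 Gy at 6 weeks the value was -1.05 (SE 0.37) and the edgeR adjusted p of 0.0727 missed the limit. Without library 3134 in the shared fit the edgeR adjusted p became 1.42e-05 for 65 Gy at 2 weeks and 0.000101 for 65 Gy at 6 weeks, and the fold changes stayed at -1.15 and -1.05. For 75 Gy at 2 weeks the log2 fold change without it was -1.01 (edgeR adjusted p = 0.00017). With only the libraries of the groups compared in the fit, the call for 75 Gy at 2 weeks was lost (-1.41, edgeR adjusted p = 0.107). Leaving out any 1 of the 6 libraries 3126 to 3131 ended the call for 65 Gy at 2 weeks (edgeR adjusted p up to 0.128).

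Fibin ran close to Ednrb. Control levels were 70.6, 56.7 and 58.8 CPM at 2 weeks and 79.0, 70.8 and 74.1 CPM at 6 weeks. Irradiated levels at 2 weeks were 23, 32.3 and 28.0 CPM after 65 Gy and 36.3, 29.2 and 9.02 CPM after 75 Gy. At 6 weeks they were 26.1 and 32.2 CPM after 65 Gy and 24.9, 25.0 and 21.2 CPM after 75 Gy. The 11 irradiated libraries again stood below all 6 controls, with 36.3 CPM as the highest irradiated and 56.7 CPM as the lowest control level. Fibin was the member with the largest log2 decrease at 6 weeks: -1.36 (SE 0.37, edgeR adjusted p = 0.0245) after 65 Gy and -1.66 (SE 0.32, edgeR adjusted p = 0.00137) after 75 Gy. The second value leaves 31.8% of the control level. At 2 weeks the log2 fold change was -1.16 (edgeR adjusted p = 0.0315) after 65 Gy and -1.32 (edgeR adjusted p = 0.00875) after 75 Gy. Without library 3134 the last was -0.92 (edgeR adjusted p = 0.00114), under the fold limit, and with only the libraries of the groups compared it was -1.31 (edgeR adjusted p = 0.119). For 65 Gy the call was lost whichever library was left out, 3126 to 3131 at 2 weeks (edgeR adjusted p up to 0.125) and 3135 to 3138 or 3140 at 6 weeks (up to 0.196). Without library 3134 in the shared fit the edgeR adjusted p was 4.97e-05 and 4.65e-05.

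Kdr encodes VEGF receptor 2, the main signalling receptor for VEGF-A on endothelium. Its controls had 455, 548 and 574 CPM at 2 weeks and 607, 585 and 603 CPM at 6 weeks. At 2 weeks the irradiated libraries had 388, 398 and 399 CPM after 65 Gy and 382, 352 and 204 CPM after 75 Gy, library 3134 being the lowest. At 6 weeks they had 300 and 321 CPM after 65 Gy and 259, 214 and 209 CPM after 75 Gy. No irradiated library reached the lowest control. Kdr was called after 75 Gy at 6 weeks, with a log2 fold change of -1.40 (SE 0.17, edgeR adjusted p = 5.52e-05). It also passed the adjusted p after 75 Gy at 2 weeks (-0.75, edgeR adjusted p = 0.00603) and after 65 Gy at 6 weeks (-0.95, edgeR adjusted p = 0.00602). After 65 Gy at 2 weeks the value was -0.41 (SE 0.17, edgeR adjusted p = 0.142). That p was 0.00935 without library 3134 in the shared fit. After 65 Gy at 6 weeks leaving out library 3138 gave an edgeR adjusted p of 0.0808.

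Tbx2, the T-box factor, was at 216, 246 and 267 CPM in the controls of 2 weeks and at 301, 307 and 328 CPM in those of 6 weeks. After 65 Gy it was at 209, 179 and 192 CPM at 2 weeks and 207 and 231 CPM at 6 weeks. After 75 Gy it was at 174, 210 and 124 CPM at 2 weeks and 210, 156 and 139 CPM at 6 weeks. Within each time the irradiated libraries were below the controls, but by little at 2 weeks, where 210 CPM met a lowest control of 216 CPM. In the fit over all libraries, the decreases that passed the test were those after 75 Gy: -0.52 (SE 0.17, edgeR adjusted p = 0.0391) at 2 weeks and -0.89 (SE 0.17, edgeR adjusted p = 0.00117) at 6 weeks. Without library 3134 the first was -0.34 (edgeR adjusted p = 0.154) and no longer passed, nor did it without 3127, 3128 or 3132. After 65 Gy at 6 weeks the value was -0.51 (edgeR adjusted p = 0.0892). Without library 3134 in the shared fit, a choice made after the results were seen, that edgeR adjusted p was 0.0303.

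Car4, the capillary carbonic anhydrase, was the member whose levels at 2 weeks did not separate from controls. The controls of 2 weeks had 146, 133 and 145 CPM, and the 65 Gy libraries 143, 131 and 134 CPM. Of the 75 Gy libraries of 2 weeks, 2 had 167 and 142 CPM, and library 3134 had 56.2 CPM. The log2 fold change was -0.05 (95% CI -0.59 to 0.48) after 65 Gy and -0.22 (95% CI -0.75 to 0.32) after 75 Gy, and 0.13 after 75 Gy without library 3134. At 6 weeks the groups stood apart, with controls at 153, 147 and 146 CPM, 65 Gy at 102 and 118 CPM, and 75 Gy at 96.7, 81.0 and 79.6 CPM. The decrease after 75 Gy at 6 weeks, -0.79 (SE 0.25), passed the test (edgeR adjusted p = 0.0238), and that after 65 Gy, -0.44 (SE 0.28), did not (edgeR adjusted p = 0.331). Without library 3134 in the shared fit the edgeR adjusted p of the latter was 0.00925. The decrease after 75 Gy did not pass without 3135, 3136, 3142 or 3143 (edgeR adjusted p up to 0.0918). Resident alveolar macrophages also use Car4. At 6 weeks the summed CPM of 8 of their genes was 427 to 579 in controls, 1461 to 1998 after 65 Gy and 1297 to 1550 after 75 Gy. At 2 weeks that sum was 468 to 1110 in controls, 628 to 800 after 65 Gy and 719 to 931 after 75 Gy. At 6 weeks the sum was carried mainly by Chil3, chosen after its values were seen, with a mean of 329 CPM in controls, 1422 after 65 Gy and 1106 after 75 Gy. The 8 genes did not move one way, since by the adjusted p 4 rose and 0 fell after 65 Gy at 6 weeks, and 3 rose and 2 fell after 75 Gy. Of all genes, 7.66% rose and 7.01% fell after 65 Gy at 6 weeks, and 18% rose and 18% fell after 75 Gy. The part of macrophage RNA in the Car4 level was not tested.

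Apln encodes apelin, a secreted peptide that acts on endothelium through Aplnr. It was at 52.5, 55.4 and 68.3 CPM in the controls of 2 weeks and at 58.7, 56.3 and 53.9 CPM in those of 6 weeks. At 2 weeks it was higher in every irradiated library, at 84.8, 78.1 and 104 CPM after 65 Gy and 95.8, 89.1 and 75.4 CPM after 75 Gy. At 6 weeks it was lower in every irradiated library, at 36.8 and 43.0 CPM after 65 Gy and 38.7, 37.2 and 28.1 CPM after 75 Gy. The rise at 2 weeks was 0.60 (SE 0.14, edgeR adjusted p = 0.0152) on the log2 scale after 65 Gy and 0.56 (SE 0.14, edgeR adjusted p = 0.0111) after 75 Gy, about 152% and 148% of control. The first did not pass without 3127 or 3131 (edgeR adjusted p up to 0.0777). At 6 weeks the log2 fold change was -0.70 (SE 0.14, edgeR adjusted p = 0.00189) after 75 Gy and -0.50 (SE 0.16, edgeR adjusted p = 0.0533) after 65 Gy. Without library 3134 in the shared fit, a choice made after the results were seen, the latter had an edgeR adjusted p of 0.0373. The 2 times cancelled in the mean of the 4 irradiated groups against controls, which was -0.01 (SE 0.09, edgeR adjusted p = 0.953) for Apln. Ordered by mean level, Apln ran from 65 Gy at 2 weeks (89.0 ± 13.5 CPM, SD, n = 3) and 75 Gy at 2 weeks (86.7 ± 10.4, n = 3), through the controls of 2 weeks (58.7 ± 8.45, n = 3) and 6 weeks (56.3 ± 2.36, n = 3), to 65 Gy (39.9 ± 4.42, n = 2) and 75 Gy at 6 weeks (34.6 ± 5.73, n = 3). Neighbours within each of these 3 pairs differed by less than the larger of their SDs.

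**Figure D2:**
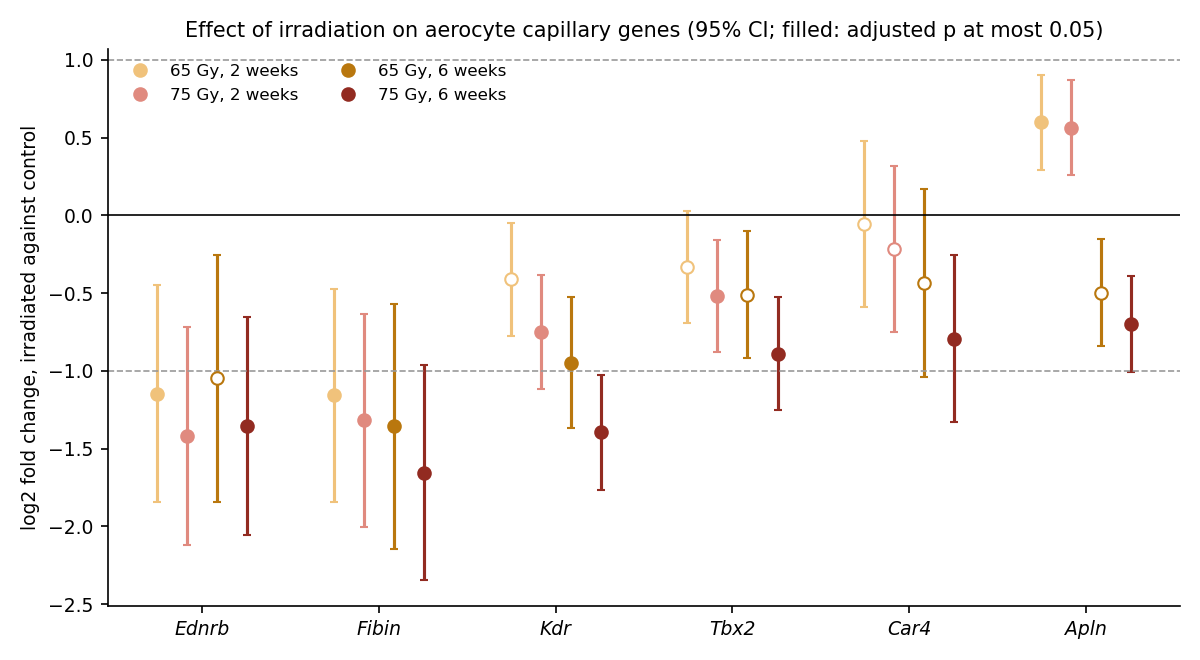
Log2 fold change of each member against controls of the same time (vertical axis) with 95% confidence intervals from the fit over 17 libraries; filled points have an adjusted p of at most 0.05 and dashed lines mark a log2 change of 1 in size. Apln goes from 0.60 and 0.56 at 2 weeks to -0.50 and -0.70 at 6 weeks, while the other 5 lie below 0 in all 4 comparisons.

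Within single comparisons, the members whose groups did not overlap numbered 4 lower (Ednrb, Kdr, Fibin and Tbx2) and 1 higher (Apln) at each dose at 2 weeks. Of all genes, 13.5% were lower and 15.9% higher in this way after 65 Gy, and 14.8% and 15.5% after 75 Gy. At 6 weeks all 6 members were lower without overlap at both doses, beside 28.1% of all genes after 65 Gy, where the group has 2 libraries, and 27.7% after 75 Gy.

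The difference between the effects at 6 and at 2 weeks was tested directly. For 75 Gy the Apln effect changed by -1.26 (SE 0.20, edgeR adjusted p = 0.0152) on the log2 scale, and Apln was the only member called, among 9 genes (0.0408% of all) with such a change in the lower direction. Leaving out control library 3126 gave -1.19 with an edgeR adjusted p of 0.0515. For 65 Gy the change was -1.10 (SE 0.22) with an edgeR adjusted p of 0.12, in a comparison with 3 genes called in all. The other 5 members had changes between -0.65 and 0.06 at 75 Gy that missed the adjusted p. Without library 3134 the effect of 75 Gy changed by -0.92 for Car4 (edgeR adjusted p = 0.0123) and -0.88 for Kdr (edgeR adjusted p = 0.0208), both larger decreases at 6 weeks, and by -0.35 for Ednrb (edgeR adjusted p = 0.351).

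The doses were not told apart. At both times all 6 members had a lower fitted level after 75 Gy than after 65 Gy, by 0.04 to 0.45 on the log2 scale, and edgeR adjusted p-values ran from 0.694 to 0.959. The 95% intervals of these 12 differences reached from -1.07 (Ednrb at 6 weeks) to 0.52 (Fibin at 2 weeks), so differences inside each gene's interval were not excluded. That of Kdr at 6 weeks, -0.85 to -0.05, left out 0 (edgeR unadjusted p = 0.0315, adjusted p = 0.735). Groups did not overlap for Kdr at both times and for Car4 and Fibin at 6 weeks, all lower after 75 Gy. Of all genes, 5.95% at 2 weeks and 15.3% at 6 weeks were lower in this way. Without library 3134, 4 of the 6 differences at 2 weeks had the opposite sign. By the quasi-likelihood test no gene of the whole table differed between the doses at either time, while 1570 and 1431 genes had an unadjusted p under 0.05 at 2 and 6 weeks. By edgeR's exact test 6 and 11 genes were called and by DESeq2 7 and 14, none of them a member. Controls of 6 weeks against those of 2 weeks gave log2 differences of -0.06 to 0.36 for the members, with edgeR adjusted p-values of at least 0.326. None was called, beside 0.24% of all genes higher and 0.336% lower by both limits. All but Apln lay higher at 6 weeks without overlap between the 2 control groups, beside 12.4% of all genes.

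Per kilobase of exon, the controls of 2 weeks had 71.9 ± 3.58 CPM per kb for Car4 (SD, n = 3), 67.1 ± 7.16 for Tbx2 (n = 3) and 58.2 ± 6.93 for Kdr (n = 3). The other 3 were lower, at 31.9 ± 2.17 CPM per kb for Ednrb, 27.4 ± 3.30 for Fibin and 18.6 ± 2.68 for Apln (n = 3 each). Car4 and Tbx2 differed by less than the SD of Tbx2 but by more than that of Car4. After 75 Gy at 6 weeks the same scale gave 46.4 ± 10.1 for Tbx2, 43.6 ± 4.83 for Car4, 25.2 ± 3.04 for Kdr, 14.4 ± 2.40 for Ednrb, 11 ± 1.82 for Apln and 10.5 ± 0.948 for Fibin (n = 3 each). Apln thus passed from the lowest level to one not separable from Fibin.

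Other endothelial genes fell beside the members. In the 4 comparisons (65 Gy and 75 Gy at 2 weeks, then at 6 weeks), 4.29%, 10.5%, 7.01% and 18% of all genes fell by the adjusted p. Of 17 pan-endothelial genes, 10, 14, 14 and 16 fell, with medians of -0.65, -0.76, -0.81 and -1.08 on the log2 scale. Among them Tek, the angiopoietin receptor, had a log2 fold change of -1.38 (edgeR adjusted p = 1.31e-06) and S1pr1, a receptor for sphingosine-1-phosphate, -1.01 (edgeR adjusted p = 3.15e-06) in the mean over the 4 irradiated groups. Emcn passed in none of the 4, at 0.40 (edgeR adjusted p = 0.101) after 75 Gy at 6 weeks. Of 7 other genes known from aerocytes, 4, 6, 5 and 7 fell, with medians of -0.58, -0.70, -0.75 and -1.18. Chst1, a sulfotransferase, was at -0.81 (edgeR adjusted p = 1.0e-05) and the cytochrome gene Cyp4b1 at -1.12 (edgeR adjusted p = 1.2e-05) in the mean over the irradiated groups. Of 8 general capillary genes, 5, 6, 5 and 7 fell, with medians of -1.07, -0.97, -0.83 and -1.23. Kit, the stem cell factor receptor, was at -1.30 (edgeR adjusted p = 1.43e-06) and Ptprb, the endothelial tyrosine phosphatase, at -1.38 (edgeR adjusted p = 3.71e-06).

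Lists of other cell types were measured in the same way, and the 2 genes named for each are those with the smallest p in the mean over the 4 irradiated groups. Medians over the 4 comparisons lay between -0.91 and -0.66 for 8 arterial genes, where Efnb2 (-1.53 in the mean) and Hey1 (-0.96) fell. Dkk2 rose in that list, by 1.70 and 2.49 at 6 weeks. For 6 venous genes they lay between -0.72 and -0.37, with Vwf (-0.90) and Slc6a2 (-1.32) lower in the mean. Ackr1 rose among them, by 4.73 and 5.23 at 6 weeks, and Vcam1 by 0.74 after 75 Gy at 6 weeks. Dkk2, Ackr1 and Vcam1 were chosen after their values were seen. Medians lay between -0.85 and -0.66 for 6 lymphatic genes, where Reln (-0.91) and Lyve1 (-1.06) fell. The Flt4 gene described with the VEGF genes is also in the lymphatic list, Nrp1 in the list of other aerocyte genes and Aplnr in the general capillary list.

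Outside the endothelium, medians ran from -0.73 to -0.55 for 9 fibroblast genes (Pdgfra -0.72 and Fgf10 -0.61) and from -0.42 to -0.26 for 8 pericyte genes (Trpc6 -0.56 and Notch3 -0.59). For 7 genes of alveolar type 1 cells, which lie against the aerocytes across the gas-exchange barrier, they ran from -0.73 to -0.41 (Clic5 -0.67 and Akap5 -0.57). Alveolar type 2 genes stayed near the median of all genes, at -0.19 to 0.01 for 6 genes, and Lamp3 (0.25, edgeR adjusted p = 0.0502) and Abca3 (-0.20, edgeR adjusted p = 0.0542) did not pass. Leukocyte genes had medians of 0.37 to 1.15 over 6 genes, and Cd68, a macrophage gene, rose by 2.25 (edgeR adjusted p = 4.99e-08) and Itgax by 1.56. Alveolar macrophage genes (8) had medians of -0.36 to 0.50. In the mean 4 of them rose and 3 fell by the adjusted p, beside 20.6% and 21% of all genes. Mrc1 (1.13) and Marco (1.76) were among those that rose. Krt79, Fabp1 and Ear1, chosen after their values were seen, fell (-1.31, -2.61 and -0.99). Smooth muscle genes (5) had medians of -0.57 to 0.13 (Myh11 -0.46 and Des -0.31), mesothelial genes (5) of -2.60 to -0.51 (Upk1b -0.67 and Upk3b -1.46) and adipocyte genes (5) of -2.91 to 0.28 (Cidec -0.86, and Lep at -0.93 without passing). No gene of these cell type lists was at 0 in a whole group. The part of these other cells in the members' results was not tested.

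**Figure D3:**
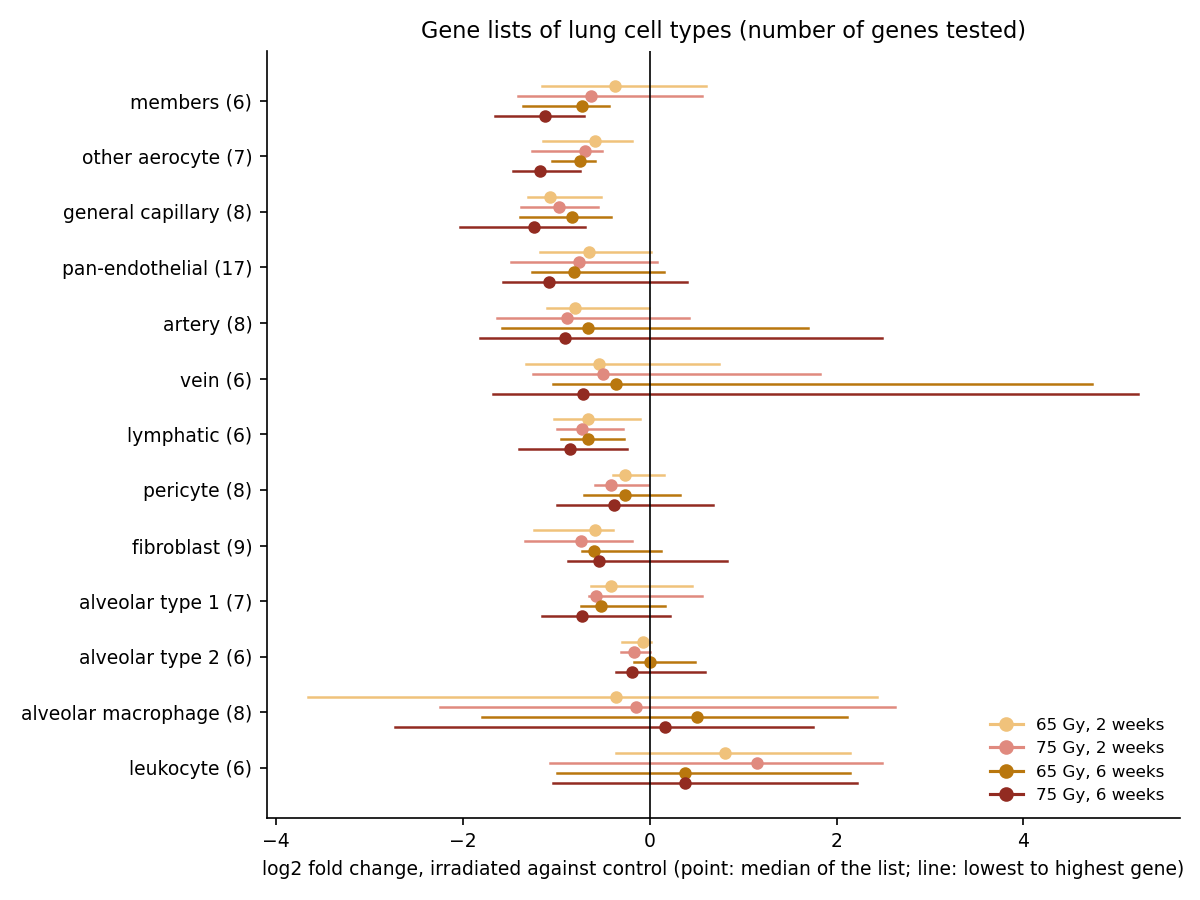
Log2 fold change against controls (horizontal axis) for gene lists of lung cell types, with the number of genes tested in brackets; the point is the median and the line runs from the lowest to the highest gene, in 4 colours for the 4 comparisons. The 4 capillary and pan-endothelial lists have medians from -0.37 to -1.23, the alveolar type 2 list lies near 0 and the leukocyte list above it.

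Each member was therefore also set against endothelial RNA of the same library, as its log2 CPM minus the mean log2 CPM of the 17 pan-endothelial genes. On this relative scale, over both times together, Ednrb and Fibin lay below controls and Apln and Car4 lay above them. Kdr did not pass the test over both times, which joins group means above controls at 2 weeks with group means below them at 6 weeks. Relative Ednrb was -1.14 ± 0.15 (SD, n = 3) in the controls of 2 weeks, -1.68 ± 0.15 (n = 3) after 65 Gy and -1.99 ± 0.66 (n = 3) after 75 Gy. At 6 weeks it was -0.90 ± 0.04 (n = 3), -1.19 ± 0.00104 (n = 2) and -1.24 ± 0.13 (n = 3). The irradiated mean was 0.53 lower than the control mean in log2 (-1.56 against -1.02, difference -0.53, n = 11 and 6; two-sided exact permutation test within time, p = 0.000213). That is the smallest p that the 4704 arrangements can give, and it is not adjusted over the 6 tests made. Fibin gave a difference of -0.64 (exact permutation p = 0.000213).

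Apln showed the largest relative difference, 0.84 in log2 (-1.53 against -2.37, exact permutation p = 0.000425). It came mainly from 2 weeks, where relative Apln was -2.36 ± 0.15 in controls, -1.15 ± 0.22 after 65 Gy and -0.99 ± 0.30 after 75 Gy (SD, n = 3 each). At 6 weeks it was -2.38 ± 0.09 in controls (n = 3), -2.13 ± 0.04 after 65 Gy (n = 2) and -2.07 ± 0.22 after 75 Gy (n = 3), so relative Apln was not below controls there. Relative Car4 was 0.39 higher (-0.64 against -1.03, exact permutation p = 0.000425), with 10 of 11 irradiated libraries at -0.79 or above, library 3134 at -1.08, and controls from -1.15 to -0.91. Relative Tbx2 was 0.21 higher (exact permutation p = 0.0244), a difference whose p reached 0.154 when single libraries were left out. These tests did not set the members against other genes. In the fit on an endothelial scale given below, 80% of all genes were higher and 0.834% lower by the adjusted p in the mean of the 4 irradiated groups. Relative Kdr differed by -0.09 over both times (exact permutation p = 0.287). At 2 weeks it was 0.80 ± 0.14 in controls, 1.01 ± 0.01 after 65 Gy and 0.82 ± 0.08 after 75 Gy (SD, n = 3 each). At 6 weeks it was 1.03 ± 0.05 in controls (n = 3), 0.84 ± 0.04 after 65 Gy (n = 2) and 0.65 ± 0.05 after 75 Gy (n = 3). Its irradiated means were thus below controls at 6 weeks only. Against 8 general capillary genes in place of the pan-endothelial genes the Kdr difference was 0.14 (exact permutation p = 0.129).

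**Figure D4:**
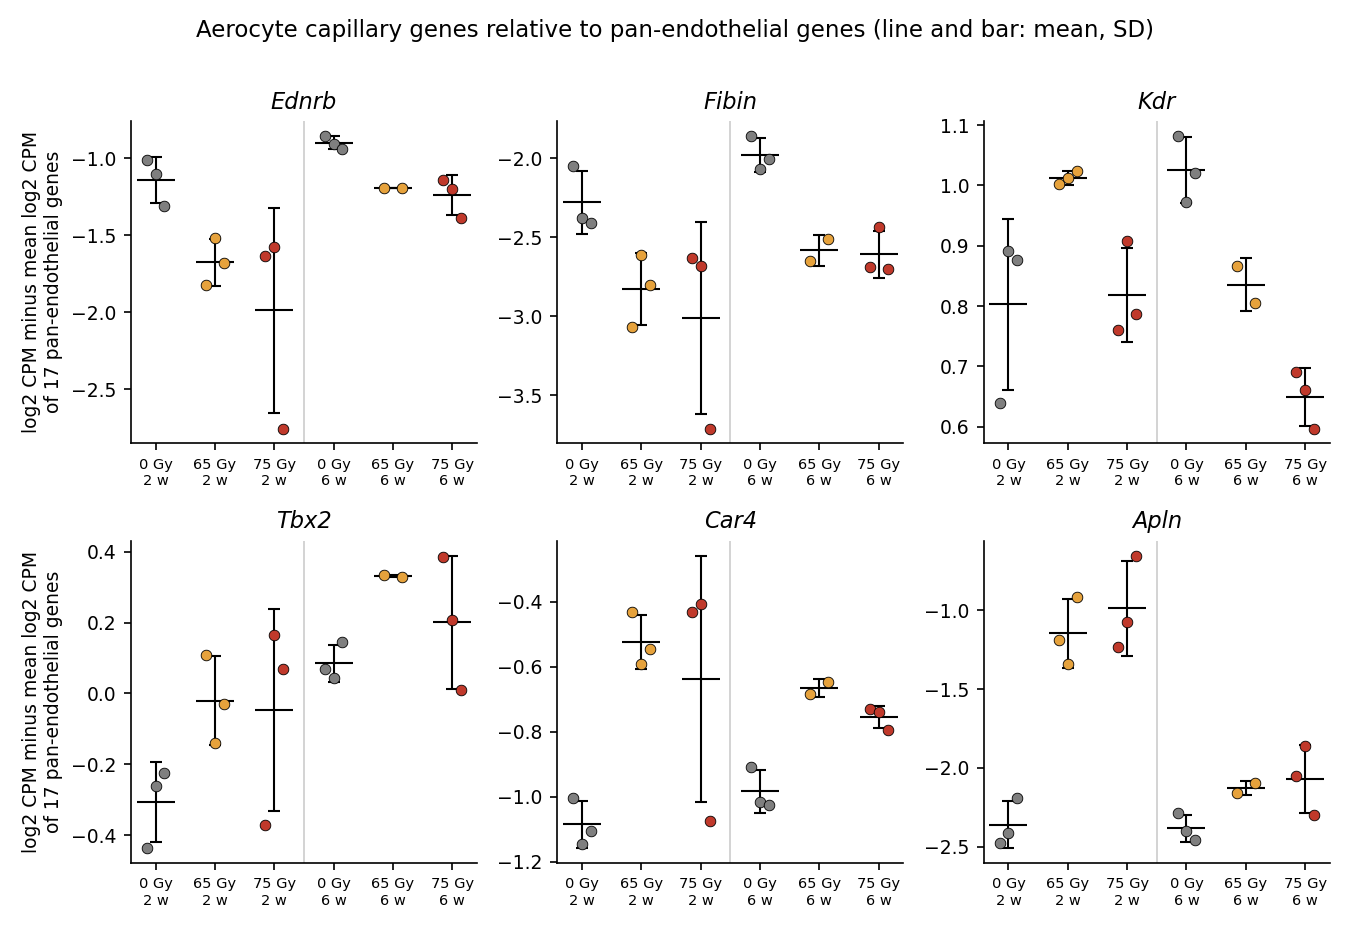
Level of each member relative to endothelial RNA (vertical axis, log2 CPM of the member minus the mean log2 CPM of 17 pan-endothelial genes) per library by dose and time, with the mean and SD of each group. Apln is at -2.36 and -2.38 in the control groups and -1.15 and -0.99 in the irradiated groups of 2 weeks; Ednrb and Fibin are lower after irradiation at both times.

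A fit over all genes with libraries scaled to the same endothelial mean reads members against endothelium and not against the tissue. On that scale the median of all genes was 0.61, 0.85, 0.77 and 1.07 above controls. Apln was called higher at 2 weeks, by 1.22 (SE 0.18, edgeR adjusted p = 0.000373) after 65 Gy, where 13.2% of all genes were called higher, and by 1.39 after 75 Gy, where 31.9% were. No member was called higher at 6 weeks, where 24.2% and 49.6% of all genes were, or lower in any of the 4, where 0.227%, 0.295%, 0.104% and 0.15% were. By the adjusted p alone, Car4 and Apln were higher in both comparisons of 2 weeks, beside 42.6% and 65.9% of all genes, with Car4 at 0.56 and 0.48 (edgeR adjusted p = 0.0185 and 0.0182). Higher values on this scale were thus frequent across all genes. At 6 weeks no member was higher by the adjusted p, while 53.2% and 73.3% of all genes were.

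Lower values on that scale were rarer. After 75 Gy at 2 weeks Ednrb (-0.76, edgeR adjusted p = 0.0076) and Fibin (-0.66, edgeR adjusted p = 0.0182) were lower by the adjusted p alone, beside 0.775% of all genes. Without library 3134 they were at -0.47 (edgeR adjusted p = 0.00462) and -0.39 (edgeR adjusted p = 0.041). After 75 Gy at 6 weeks Fibin (-0.63, edgeR adjusted p = 0.0206) and Kdr (-0.38, edgeR adjusted p = 0.0158) were, beside 0.494%. Ednrb did not pass there (-0.34, edgeR adjusted p = 0.18). After 65 Gy none was lower by the adjusted p at either time, beside 0.44% and 0.222%. At 2 weeks Ednrb was at -0.54 and Fibin at -0.55, and at 6 weeks Ednrb was at -0.29 and Fibin at -0.61. In the mean of the 4 irradiated groups no member was called by both limits, beside 31.2% of all genes higher and 0.145% lower. By the adjusted p alone Apln (0.80), Car4 (0.40) and Tbx2 (0.23) were higher, beside 80% of all genes, and Ednrb (-0.48) and Fibin (-0.61) lower, beside 0.834%.

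Ligands, enzymes and receptors of the same pathways were read from lists of further genes. In the VEGF list of 9 genes, 4, 4, 5 and 6 fell and 0, 1, 1 and 1 rose by the adjusted p in the 4 comparisons, with medians of -0.41, -0.23, -0.53 and -0.64. Of all genes, 4.29%, 10.5%, 7.01% and 18% fell and 6.7%, 11.8%, 7.66% and 18% rose. Vegfa, the ligand of Kdr made largely by alveolar type 1 cells in adult lung, fell in all 4 comparisons, by -0.55, -0.80, -0.84 and -1.19 (edgeR adjusted p between 0.000111 and 0.0409). Its level was 1089 to 1306 CPM in controls of 2 weeks and 528 to 660 CPM after 75 Gy at 6 weeks. Flt1, VEGF receptor 1, fell in all 4, to -1.49 after 75 Gy at 6 weeks (edgeR adjusted p = 7.79e-06). The co-receptor Nrp1 did so too, to -0.75 (edgeR adjusted p = 8.91e-05). Flt4, the receptor for VEGF-C and VEGF-D, fell in all but 65 Gy at 2 weeks and was at -1.40 (edgeR adjusted p = 2.55e-05) after 75 Gy at 6 weeks. Of the other ligands, Vegfc fell in all but 75 Gy at 2 weeks and Vegfd after 75 Gy at 6 weeks only (-0.48, edgeR adjusted p = 0.0369). Pgf, placental growth factor, which binds Flt1 but not Kdr, was the gene of the list that rose, by 0.71, 0.96 and 1.04 in all but the first comparison (edgeR adjusted p = 0.0193, 0.0107 and 0.00131). Its level was low, 3.37 to 3.70 CPM in controls of 6 weeks against 6.07 to 8.32 CPM after 75 Gy. Vegfb and Nrp2 did not pass in any of the 4.

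Of 6 further endothelin genes, 3, 3, 2 and 3 fell and none rose, with medians of -0.64, -0.79, -0.69 and -0.49. Of all genes, 4.29%, 10.5%, 7.01% and 18% fell and 6.7%, 11.8%, 7.66% and 18% rose. Edn1, endothelin 1, fell in all 4 by -0.66 to -0.81 (edgeR adjusted p between 0.00128 and 0.0237). Ece1, the enzyme that cuts endothelin from its precursor, also fell in all 4, from -0.55 after 65 Gy at 2 weeks to -1.22 (edgeR adjusted p = 2.84e-05) after 75 Gy at 6 weeks. Edn3 fell in all but 65 Gy at 6 weeks. Ednra, the receptor of smooth muscle and mesenchyme, had values of -0.38 to -0.17 that did not pass, so among the receptor genes Ednrb alone passed the test.

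**Figure D5:**
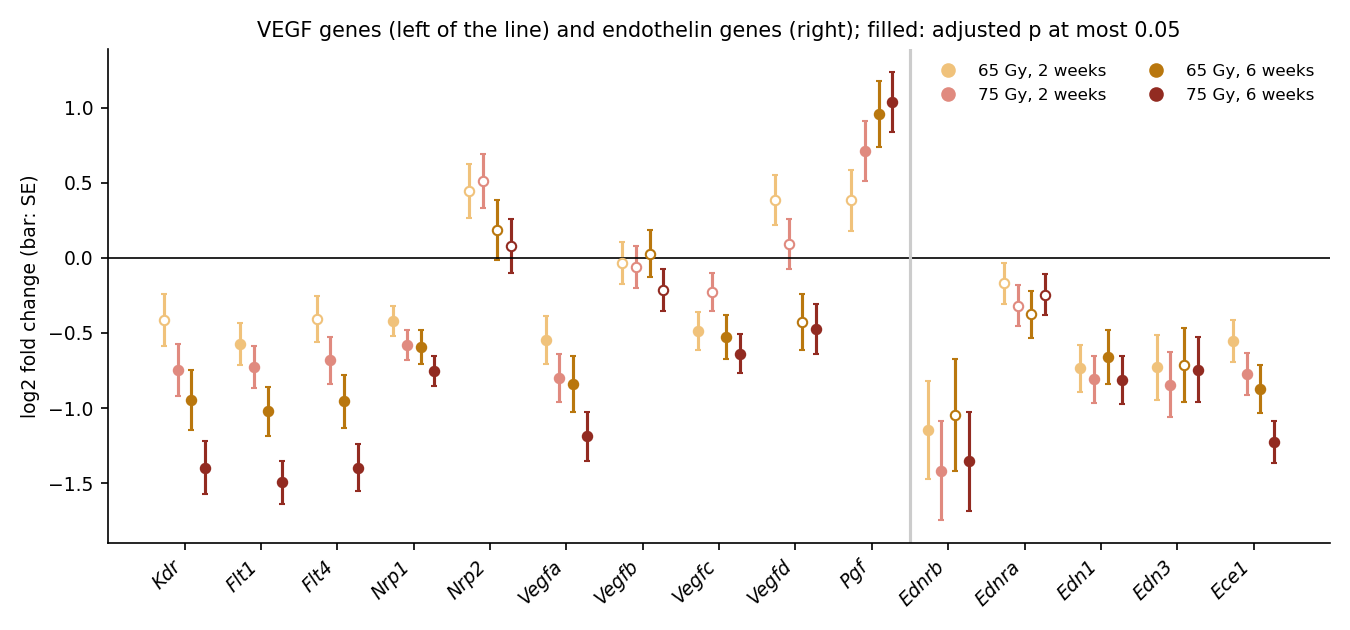
Log2 fold change against controls (vertical axis, bars are SE) for 10 VEGF genes and 5 endothelin genes, members Kdr and Ednrb included; filled points have an adjusted p of at most 0.05, and Ece2 and Edn2, whose errors were over 1, are not drawn. Vegfa, Flt1, Nrp1, Edn1 and Ece1 fall in all 4 comparisons and Pgf rises to 1.04.

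The apelin list has 2 genes beside Apln. The receptor Aplnr did not pass in any comparison, with values of -1.24 (edgeR adjusted p = 0.0514), -0.86, -0.41 and -0.70 and control levels of 2 weeks spread from 60.1 to 162 CPM. Apela, the other ligand of that receptor, had 0 counts in all 6 control libraries. Irradiated libraries held 0 to 8 counts after 65 Gy at 2 weeks, 8 to 21 after 75 Gy at 2 weeks, 21 and 28 after 65 Gy at 6 weeks and 17 to 24 after 75 Gy at 6 weeks. Against a floor of 3 counts over the control group, Apela was at least 11.7-fold higher after 75 Gy at 2 weeks, 24.0-fold after 65 Gy and 20.0-fold after 75 Gy at 6 weeks, and these 3 passed the test (edgeR adjusted p = 0.00637, 0.00498 and 0.00175). For 65 Gy at 2 weeks the edgeR adjusted p was 0.0663. With no count in controls, Apela passed the filter on low counts only through the irradiated libraries, so these p-values are a description of its presence there. The level was at most 0.46 CPM in every library, far below that of Apln.

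Among 15 other carbonic anhydrase genes, 13 were tested. Car13, a cytosolic enzyme, rose in all 4 comparisons, by 1.14, 1.38, 1.29 and 1.61 (edgeR adjusted p at most 0.000366), from 4.82 to 7.16 CPM in the controls of 2 weeks. Car9, an enzyme induced by low oxygen, rose in all but the first, by 1.24, 1.27 and 1.32 at levels of at most 2.48 CPM. Car15 fell in the same 3 comparisons, by -0.84, -0.83 and -0.95. Car8 rose after 75 Gy at 6 weeks (0.48, edgeR adjusted p = 0.00323), Car12 fell after 65 Gy at 6 weeks (-1.34, edgeR adjusted p = 0.0123), and Car10, with 0 counts in every control, had 7 to 17 counts after 75 Gy at 6 weeks (edgeR adjusted p = 0.0109) and, like Apela, passed the filter only through irradiated libraries. The list median was between -0.23 and -0.01, near that of all genes.

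Of 10 further T-box genes, 2, 4, 0 and 4 fell and none rose, with medians of -0.11, -0.47, -0.38 and -0.52. Of all genes, 4.29%, 10.5%, 7.01% and 18% fell and 6.7%, 11.8%, 7.66% and 18% rose. Tbx3, the closest relative of Tbx2, was at -1.29 (edgeR adjusted p = 0.000397) after 75 Gy at 6 weeks and passed in all comparisons but 65 Gy at 6 weeks. Tbx4 and Tbx5, the factors of lung mesenchyme, fell after 75 Gy at both times by -0.47 to -0.55. Tbx6 fell in all but 65 Gy at 6 weeks, by -0.65 to -0.90.

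Across the 17 libraries Ednrb and Fibin had the most similar course of any pair of members (Pearson r = 0.98 of log2 CPM, 0.977 without library 3134). Within groups, after subtraction of each group's mean, the value was 0.976 with library 3134 and 0.782 without it. The pairs of Apln with Ednrb and with Fibin had r of -0.13 and 0.00227. These are descriptions over libraries that share dose, time and depth.

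The 3 genes closest to each member were taken by the same measure over 17 libraries. For Kdr they were Cdh5 (r = 0.992), which encodes VE-cadherin, Adgrf5 and Arhgef15. For Ednrb they were Myzap (r = 0.983), Slc5a12 and Tspan2, and for Fibin Myzap (r = 0.987), Fmo1 and Hopx. Those of Car4 were Mxra7 (r = 0.936), Cox4i2 and Prx, those of Tbx2 were Chst3 (r = 0.968), Tns2 and Ifitm10, and those of Apln were Rap2a (r = 0.938), Adamts9 and Cald1. The mean of the 6 members was closest to Prx (r = 0.978), then to Pecam1, Slc9a3r2, Vegfa and Mxra7. Prx is also in the list of other aerocyte genes, Adgrf5 in the general capillary list, and Pecam1 and Cdh5 in the pan-endothelial list. By Spearman's rho only Mxra7 and Cox4i2 for Car4, and Rap2a and Cald1 for Apln, were again among the 3 closest to a member. The closest to the mean by rho were Rgs9, Pde3a, Slc7a10, Acvrl1 and Cyyr1, none of those named for it above.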

How the data were processed

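RNA of 17 mouse lung libraries was sequenced paired-end after poly(A) selection with a stranded kit. Per the study's methods, the authors used Trimmomatic for trimming, HISAT2 for alignment (build GRCm38.p6) and StringTie for assembly. They deposited whole-number counts per gene by symbol and NCBI GeneID, not normalized. How StringTie output became counts, and whether strand was used, is not given in the sources used here. Labels name each library separately, so p-values measure the spread between libraries. Counts of all libraries were fitted with 1 coefficient per group in R 4.3.3 with edgeR 4.0.16 (filterByExpr, minimum count 10 and minimum total 15; TMM; quasi-likelihood F test; Benjamini-Hochberg over 22052 genes). CPM are TMM-scaled, and log2 CPM have a prior count of 2. Exonic lengths come from GENCODE and promoters from RefSeq, both on GRCm38. The relative level was tested by exact permutation within time, two-sided. Methods were tested on simulated data. Members, lists and tests were chosen with earlier results of these data known. Named genes were all members, pathway genes that passed in a comparison with controls, for each other list the 2 genes with the smallest p, and the genes closest to each member by correlation; Emcn, Chil3 and the genes so marked were added after their values were seen. Alternatives were RLE and upper-quartile factors, looser and stricter filters, the adjusted p alone, edgeR's exact test, DESeq2 1.42.0, only the groups compared, a prior count of 0.5, general capillary genes as reference, Spearman's rho and each library left out. A further 65 Gy library of 6 weeks was not analysed here.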

Additional observations from a re-analysis of the deposited data

Results flagged for a closer look

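The effect of irradiation on Apln differed between the 2 times in a direct test. For 75 Gy the log2 effect at 6 weeks was -1.26 (SE 0.20) relative to that at 2 weeks, with an edgeR adjusted p of 0.0152, and all 3 irradiated libraries lay above the controls at 2 weeks and all 3 below them at 6 weeks. For 65 Gy the difference was -1.10 (SE 0.22), with 3 of 3 libraries above and then 2 of 2 below, and the edgeR adjusted p of 0.12 missed the limit. DESeq2 gave an adjusted p of 0.00175 for the latter.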

How the results depend on the processing

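No paired analysis was possible because the replicate numbers of the labels are never shared between groups. The members called after 65 Gy at 2 weeks (2) became 0 whichever of the 6 libraries was left out, and those after 65 Gy at 6 weeks (1) became 0 whichever of 5 was left out. By the adjusted p alone 4 members were lower and 1 higher for 75 Gy at 2 weeks, beside 10.5% and 11.8% of all genes. Those lower were 2 for 65 Gy at 6 weeks, 6 for 75 Gy at 6 weeks and 4 for the mean of the 4 irradiated groups. Beside them 7.01%, 18% and 21% of all genes were lower, and no member was higher, beside 7.66%, 18% and 20.6%. For 75 Gy at 2 weeks the count by both limits was 0 with only the groups compared, and 1 to 2 with 1 library left out, 1 without library 3134. For 65 Gy at 6 weeks it was 2 with edgeR's exact test, DESeq2, only the groups compared, or without library 3134 in the shared fit, the last chosen after seeing the data. Of the members, 0 to 1 were called for a change of the 75 Gy effect between times, 0 without library 3126, and 1 for that of 65 Gy with DESeq2 (Apln). On the endothelial scale the adjusted p alone gave 2 members higher for 65 Gy at 2 weeks and 2 lower for 75 Gy at 6 weeks. For 75 Gy at 2 weeks it gave 2 higher and 2 lower, and for the mean 3 higher and 2 lower. Beside these, 42.6%, 65.9%, 73.3% and 80% of all genes were higher for 65 Gy at 2 weeks, 75 Gy at 2 weeks, 75 Gy at 6 weeks and the mean. Lower were 0.44%, 0.775%, 0.494% and 0.834%. By both limits the general capillary list gave 1 member for the mean (Apln, higher). Relative Kdr changed sign with that list (0.14), neither value passing the test. Relative Tbx2 was 0.14 to 0.26 with 1 library left out, the lower value without control library 3126. The cause of these changes was not tested. Counts of all genes moved by over 1.5 times with the adjusted p alone (2422, 4922, 3234 and 7935 against 960, 1707, 1164 and 2297; 9175 against 1871 for the mean; 359 against 127 between controls), with only the groups compared (834 for 75 Gy at 2 weeks, 32 between controls), with 10 counts in every library (995 for the mean), without library 3134 (1097 for 75 Gy at 2 weeks), without 1 of the libraries of 65 Gy at 6 weeks (604 and 743), and between tools (238 and 221 between controls by the exact test and DESeq2; 299 against 56 and 79 against 3 for the changes between times by DESeq2). Depth limited the reading of genes with few counts, such as Apela and Car10.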
